A study of Mus musculus with 50 samples.

Results

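Of the 24552 genes in the deposited count tables, 8 markers of striatal GABAergic interneurons were chosen by symbol and followed through D1-IPs, D2-IPs, inputs, stress groups and libraries labelled Sirt1-KO. They were *Sst*, *Npy*, *Nos1*, *Chodl*, *Pvalb*, *Pthlh*, *Th* and *Calb2*, and all 8 were found in both tables and passed the filter on low counts in every model. The libraries were made from the nucleus accumbens (NAc) of C57BL/6 RiboTag (RT) mice, aged 8 to 12 weeks (for the Sirt1-KO mice an age is not given in the sources used here), in which Cre recombinase switches on an HA-tagged copy of the ribosomal protein Rpl22. Cre was driven by the D1 receptor gene in a bacterial artificial chromosome (D1-Cre, line FK150) or by the D2 receptor gene (D2-Cre, line ER44), and ribosomes pulled down with an HA antibody gave the D1-IP and D2-IP libraries. Input libraries held poly-A RNA of NAc tissue from the same lines without precipitation. Each library pooled punches of 2 mice. Mice were undefeated controls (Con), or were sorted as resilient (Res) or susceptible (Sus) by social interaction after repeated social defeat over up to 10 days. There were 13 D1-IPs (4 Con, 4 Res, 5 Sus), 15 D2-IPs (5 per group), 9 inputs per line (3 per group) and 4 D1-IPs of undefeated male RT; Sirt1-floxed; D1-Cre mice labelled Sirt1-KO. The question taken from the marker choice was which Cre line's precipitate carried the mRNAs of which interneuron class.

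Almost all NAc neurons are medium spiny neurons (MSNs), GABAergic projection cells that carry D1 or D2 dopamine receptors. The GABAergic interneurons among them are few and are told apart by what they make. One class makes somatostatin, neuropeptide Y and neuronal nitric oxide synthase, another makes parvalbumin and fires fast trains of action potentials, and others make tyrosine hydroxylase or the calcium-binding protein calretinin. Neuropeptide Y is also made by neurogliaform interneurons, which lack somatostatin, so *Npy* marks more than 1 class. A separate interneuron type, the cholinergic cell, carries D2 receptors.

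The 50 libraries held between 18384265 and 31785984 reads counted on genes, and no pair of replicates agreed within sampling noise. Markers of the lines went with their labels, since all 4 D1-MSN markers were higher in D1-IPs than in D2-IPs (*Drd1* log2 fold change 1.30, *Pdyn* 2.35) and all 4 D2-MSN markers were lower (*Drd2* −1.82, *Adora2a* −1.49). Against the inputs of their own line, D1-IPs were also higher in the D2-MSN markers *Penk* (1.43), *Adora2a* (0.91) and *Gpr6* (0.88), and in *Drd2* at a fold under 1.5 (0.33). D2-IPs stood at 0.44 for *Tac1* and 0.16 for *Chrm4* against inputs, and at −0.34 for *Drd1* and −0.67 for *Pdyn*. A rise over input was therefore not limited to the markers of the line's own MSNs. In the libraries labelled Sirt1-KO, *Sirt1* itself overlapped with the controls. The libraries D2 Sus 1 (IP and input) and D2 Sus 5 (IP) stood apart in several of the 8 genes, and results are also given without them.

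Promoter sequences of *Sst*, *Th* and *Npy* are shown because these genes parted in the precipitates: *Sst* did not differ detectably between D1-IPs and D2-IPs, whereas *Npy* and *Th* did. The 250 bases before the start of each gene were taken from RefSeq (GRCm38.p6), in which 7 of the 8 genes matched (all but *Calb2*). Capitals mark the cAMP response element TGACGTCA, which reads the same on both strands, and which was found in 508 of 32851 RefSeq promoters of that length (1.55%).
Sst, chr16:23890845-23891094, minus strand: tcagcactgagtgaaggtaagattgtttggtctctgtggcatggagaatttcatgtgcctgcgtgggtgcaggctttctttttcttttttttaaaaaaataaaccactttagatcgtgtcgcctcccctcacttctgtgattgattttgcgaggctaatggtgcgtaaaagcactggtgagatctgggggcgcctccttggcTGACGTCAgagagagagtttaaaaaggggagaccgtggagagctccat
Th, chr7:142899996-142900245, minus strand: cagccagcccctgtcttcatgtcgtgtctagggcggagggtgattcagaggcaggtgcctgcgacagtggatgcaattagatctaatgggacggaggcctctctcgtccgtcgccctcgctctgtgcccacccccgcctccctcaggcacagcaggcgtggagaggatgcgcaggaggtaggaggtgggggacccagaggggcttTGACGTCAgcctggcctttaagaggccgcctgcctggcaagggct
Npy, chr6:49822460-49822709, plus strand: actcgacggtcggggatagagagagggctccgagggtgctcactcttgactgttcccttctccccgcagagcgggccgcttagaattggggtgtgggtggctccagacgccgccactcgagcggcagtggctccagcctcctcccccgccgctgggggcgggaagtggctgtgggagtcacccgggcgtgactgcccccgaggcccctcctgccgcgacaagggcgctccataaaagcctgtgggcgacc
Starts are those of RefSeq, whereas the gene positions given below span all GENCODE transcripts, so that the *Th* window lies inside the GENCODE span, which a longer transcript extends, and the *Sst* window reaches into it. The element began 48 bases before the start of *Sst* and 45 bases before the start of *Th*, and was in none of the other 6 RefSeq entries of these genes. The letters TATAAA (or TTTATA, the same letters on the other strand) were in none of the 8 entries and in 12.4% of all promoters. A match describes the letters in this window and is not evidence that a factor bound there.

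In the inputs, which hold RNA of all NAc cells, *Sst* and *Npy* had the highest levels of the 8 genes per length, and *Nos1* and *Chodl*, also markers of the somatostatin class, stood in the middle and last. Levels are given as counts per 1e6 counts after TMM normalization (CPM), and levels of different genes are compared only after division by the kilobases of their exons. Per kilobase, the input medians over 18 libraries were 171 CPM for *Sst*, 69.3 for *Npy*, 13.4 for *Calb2*, 8.97 for *Nos1*, 7.10 for *Pvalb*, 3.08 for *Th*, 1.37 for *Pthlh* and 0.442 for *Chodl*. Neighbors in this order did not overlap in range except *Calb2* with *Nos1* and *Nos1* with *Pvalb*. In D1-IPs the order of the medians was the same, with *Sst* at 68.5 CPM per kilobase, *Npy* at 16.8 and *Pthlh* at 2.65. In D2-IPs *Sst* (69.9) and *Npy* (36.2) led again, while *Th* (5.94) stood above *Nos1* (5.61) with overlapping ranges and *Pthlh* (0.161) came last, its range overlapping that of *Chodl* (0.261). In these bulk libraries, fewer cells of a type and less RNA per cell cannot be told apart.

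**Figure D1:**
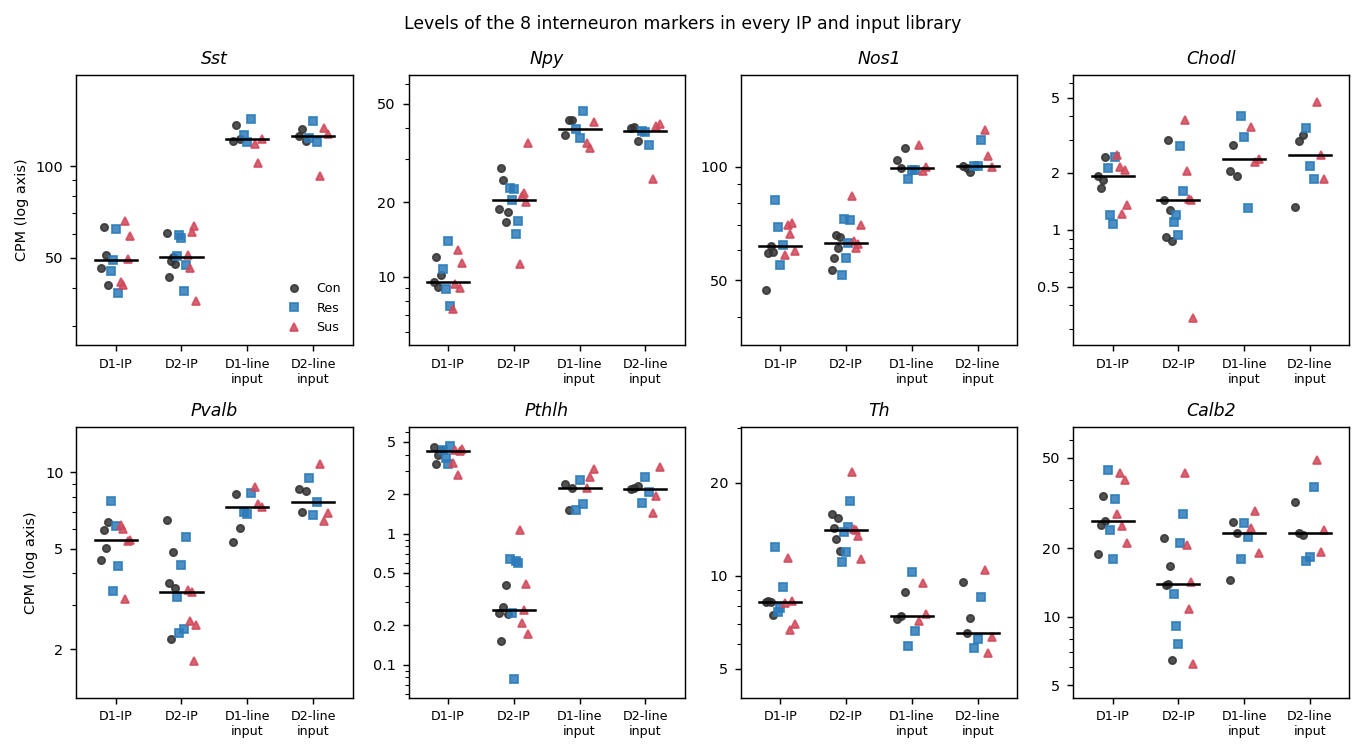
CPM of each of the 8 genes on a log axis, with 1 point per library colored by stress group and a black line at the median, in 13 D1-IPs, 15 D2-IPs and 9 inputs of each line. *Sst* and *Nos1* were below the inputs by a like amount in both IPs, *Npy* and *Th* were higher in D2-IPs, *Pvalb* and *Calb2* tended higher in D1-IPs, and the *Pthlh* points of D1-IPs and D2-IPs did not overlap.

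Of the class that makes somatostatin, neuropeptide Y and nitric oxide, *Npy* differed between the precipitates of the lines, and *Sst* and *Nos1* did not differ by 1.5-fold. *Sst* (chr16:23889573-23890958, minus strand) encodes the peptide somatostatin. It ran from 38.5 to 65.9 CPM (median 49.4) in D1-IPs and from 36.2 to 63.9 (median 50.4) in D2-IPs, and from 103 to 143 in D1-line and from 92.9 to 140 in D2-line inputs. The 2 IP ranges nearly coincided, and every IP lay below every input. The log2 fold change of D1-IP over D2-IP, as the mean over the 3 stress groups, was −0.03 (95% CI −0.22 to 0.15, adjusted p = 0.801, edgeR quasi-likelihood test).

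*Nos1* (chr5:117781032-117958840, plus strand) encodes the neuronal nitric oxide synthase. It ran from 47.0 to 81.7 CPM (median 61.4) in D1-IPs, from 51.6 to 83.7 (median 62.5) in D2-IPs and from 92.9 to 125 in inputs. The IPs of the lines overlapped along nearly the whole range (log2 fold change −0.04, 95% CI −0.17 to 0.09, adjusted p = 0.643). For *Sst* and for *Nos1* the interval stayed inside a difference of 1.5-fold in either direction.

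*Npy* (chr6:49822710-49829507, plus strand) encodes neuropeptide Y, an inhibitory peptide transmitter. It was lower in D1-IPs, where it ran from 7.38 to 14.0 CPM (median 9.53), than in D2-IPs, where it ran from 11.3 to 34.8 (median 20.5). Of the 15 D2-IPs, 14 lay above every D1-IP, and the exception was D2 Sus 1 at 11.3. Inputs had higher medians than either IP, with 39.6 CPM in the D1 line and 38.9 in the D2 line. This gave −1.04 for D1-IP over D2-IP (SE 0.13, adjusted p = 1.11e-07).

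*Chodl* (chr16:78930948-78951733, plus strand) encodes chondrolectin, a membrane lectin that marks the long-range projecting, nitric oxide synthase-rich somatostatin cells of the cortex. Per kilobase it was the lowest of the 8 genes in inputs, and an IP held 8 to 115 of its counts. It ran from 1.08 to 2.50 CPM in D1-IPs (median 1.93) and from 0.343 to 3.83 in D2-IPs (median 1.43). The D2-IP range enclosed that of the D1-IPs, with D2 Sus 5 at its lower and D2 Sus 1 at its upper end. The log2 fold change of 0.17 had an interval from −0.32 to 0.66 (adjusted p = 0.613), so a difference of 1.5-fold was not detectable at this depth and lies within the interval.

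The markers of fast-spiking cells were higher in D1-IPs. *Pvalb* (chr15:78191114-78206400, minus strand) encodes parvalbumin, a fast calcium buffer. It ran from 3.15 to 7.68 CPM (median 5.39) in D1-IPs and from 1.80 to 6.49 (median 3.35) in D2-IPs, with 6 D2-IPs below every D1-IP and 1 D1-IP above every D2-IP. The groups therefore overlapped widely. The log2 fold change was 0.62 (SE 0.16, adjusted p = 0.00209), close to the fold threshold of 1.5 (log2 0.58), and without D1 Res 1 (0.55), D2 Con 3 (0.57) or D2 Res 2 (0.58) it no longer passed that fold.

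*Pthlh* (chr6:147252101-147264183, minus strand) encodes parathyroid hormone-like hormone, a secreted peptide whose mRNA is found in fast-spiking and related striatal interneurons. It ran from 2.82 to 4.66 CPM in D1-IPs (median 4.28, 77 to 128 counts) and from 0.0782 to 1.07 in D2-IPs (median 0.261, 2 to 32 counts). All 13 D1-IPs lay above all 15 D2-IPs, which was so, in either direction, for 2.6% of 15404 genes. The medians differed 16.4-fold, and the log2 fold change was 3.38 (SE 0.21, 95% CI 2.96 to 3.81, adjusted p = 1.42e-13). The inputs lay between, from 1.51 to 3.10 CPM in the D1 line and from 1.44 to 3.22 in the D2 line. The wide gap of *Pthlh* was already known from these control libraries when the gene was chosen and is given as a description.

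The remaining markers moved in opposite directions. *Th* (chr7:142892752-142931128, minus strand) encodes tyrosine hydroxylase, the rate-limiting enzyme of catecholamine synthesis. It ran from 6.67 to 12.3 CPM in D1-IPs (median 8.21) and from 11.0 to 21.7 in D2-IPs (median 14.0). The ranges touched between 11.0 and 12.3 only, and 11 of 13 D1-IPs lay below every D2-IP. D1-IPs were lower by a log2 fold change of −0.76 (SE 0.10, adjusted p = 2.87e-07). Inputs lay at 5.93 to 10.3 CPM in the D1 line and 5.64 to 10.4 in the D2 line, so that the D2-IPs stood above every input.

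*Calb2* (chr8:110137502-110168210, minus strand) encodes calretinin. It ran from 18.1 to 44.3 CPM in D1-IPs (median 26.4) and from 6.18 to 42.9 in D2-IPs (median 14.0), with 10 of 15 D2-IPs below every D1-IP. The highest D2-IP was D2 Sus 1 at 42.9, and the next highest was D2 Res 5 at 28.3. D1-IPs stood higher, at a log2 fold change of 0.81 (SE 0.23, 95% CI 0.35 to 1.28, adjusted p = 0.00506).

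In all, 5 of the 8 genes passed a fold of 1.5 and an adjusted p under 0.05 between D1-IPs and D2-IPs, where 7.66% of the 14224 tested genes did in either direction. *Pthlh* is 1 of the 5, and its gap was known when it was chosen. *Pthlh*, *Calb2* and *Pvalb* were higher in D1-IPs, as were 4.94% of genes, and *Npy* and *Th* were lower in D1-IPs, as were 2.71%. Without D2 Sus 1 and D2 Sus 5 the same 5 genes passed (*Pthlh* 3.58, *Calb2* 0.93, *Pvalb* 0.66, *Th* −0.72, *Npy* −1.02). Rescaling each library to its pan-GABAergic genes moved the median of all genes by 0.161 and raised the share of higher calls from 64.6% to 84.0%, but over the other tools, filters and scalings and the replicate block *Npy* stayed between −1.04 and −0.88 and *Th* between −0.77 and −0.60. With each of the 28 IPs left out in turn, *Npy* ran from −1.11 to −0.96 and *Th* from −0.81 to −0.70. Because a library's scaling enters every one of these values, the ratio of each gene to *Sst* in the same library was also tested, a choice made after the data were seen. The *Npy* to *Sst* ratio had a median of 0.194 in D1-IPs, 0.381 in D2-IPs and 0.312 in inputs, a log2 difference of −0.99 between the IPs (two-sided permutation test within stress groups, p = 1e-05, the smallest 100000 permutations can give, adjusted p = 3.5e-05 over 7 ratios). The *Pthlh* ratio differed by 3.51. The ratios of *Th* (−0.72, adjusted p = 0.000303), *Pvalb* (0.683, adjusted p = 0.00309) and *Calb2* (1.01, adjusted p = 0.00309) differed in the same permutation tests. Those of *Chodl* (0.362, adjusted p = 0.261) and *Nos1* (−0.000777, adjusted p = 0.995) did not pass.

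Within single stress groups, *Npy* and *Pthlh* passed the threshold in each of the 3. *Npy* was at 9.53, 12.0, 9.10 and 10.2 CPM in D1 Con and at 18.8, 27.6, 24.5, 16.6 and 18.3 in D2 Con (log2 fold change −1.06). The corresponding values were −0.93 in Res (adjusted p = 0.00402) and −1.14 in Sus (adjusted p = 0.000209). *Pthlh* gave 3.88 in Con (adjusted p = 2.18e-08), 3.17 in Res (adjusted p = 2.06e-07) and 3.10 in Sus (adjusted p = 1.46e-07). *Th* passed in Con (−0.83) and in Sus (−0.87, adjusted p = 0.000237), whereas in Res its −0.58 (adjusted p = 0.0172) was just under the fold threshold and was past it without D1 Res 1 (−0.74), D2 Res 1 (−0.65) or D2 Res 3 (−0.63). *Pvalb* passed in Sus alone (0.91, adjusted p = 0.0174) and not when D2 Sus 4 was left out (0.79, adjusted p = 0.0528). In Res it was 0.59 (adjusted p = 0.149), and without D2 Res 5 it was 0.80 (adjusted p = 0.0483). *Calb2* passed in no single group (Res 0.91, adjusted p = 0.120; Sus 0.71, adjusted p = 0.212), but passed in Res without D2 Res 5 (1.23, adjusted p = 0.0409) and in Sus without D2 Sus 1 (1.27, adjusted p = 0.0124). The shares of all genes that passed were 4.98% in Con, 5.52% in Res and 5.55% in Sus.

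The inputs of the lines served as a background for these differences. None of the 8 genes passed between D1-line and D2-line inputs in edgeR, and 0.0266% of 15063 genes did. The member with the largest difference was *Calb2* (−0.26, adjusted p = 0.988), and unadjusted p ran from 0.193 to 0.965, so that 0 of the 8 were under 0.05, and DESeq2 called 0 of the 8 as well. The ranges of the lines' inputs overlapped for all 8 genes, and 0.0195% of genes did not overlap.

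Measured against the inputs of its own line on the TMM scale, the D1 precipitate was poorer in *Sst*, *Npy* and *Nos1* and richer in *Pthlh*. The D2 precipitate was poorer in all of the markers but *Th*, in which it was richer. Neither the rise of *Pthlh* nor that of *Th* passed when libraries were rescaled to pan-GABAergic or pan-neuronal genes, as given below. In the D1 line, 4 of the 8 genes passed, where 43.1% of genes did. Of these, 3 were lower in IPs, where 29.3% of genes were. *Npy* (log2 fold change −1.96, SE 0.13, adjusted p = 1.10e-17), *Sst* (−1.30, SE 0.09, adjusted p = 3.39e-16) and *Nos1* (−0.70, SE 0.07, adjusted p = 8.16e-13) were lower in IPs and *Pthlh* was higher (0.86, SE 0.19, adjusted p = 6.44e-05). *Pvalb* was at −0.44 (adjusted p = 0.0103, under the fold threshold), *Chodl* at −0.48 (adjusted p = 0.0835; −0.59 and 0.0362 without D1 Res input 3), *Th* at 0.12 (adjusted p = 0.364) and *Calb2* at 0.37 (adjusted p = 0.163).

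In the D2 line all 8 genes passed, where 43.6% of genes did, and 7 of them were lower in IPs, where 30.8% of genes were. *Pthlh* was lowest against input (−2.54, SE 0.22, adjusted p = 4.64e-14), followed by *Sst* (−1.28, adjusted p = 1.29e-16), *Pvalb* (−1.22, adjusted p = 2.00e-09), *Npy* (−0.84, adjusted p = 3.47e-08), *Nos1* (−0.72, adjusted p = 1.36e-13), *Calb2* (−0.72, adjusted p = 0.00572) and *Chodl* (−0.71, adjusted p = 0.0105). *Th* was the exception, higher in D2-IPs than in inputs (0.95, adjusted p = 2.10e-09). The *Calb2* call was lost without D2 Res input 3 (−0.57, under the fold) or D2 Sus input 1 (−0.50, adjusted p = 0.0550), and the *Chodl* call without D2 Res input 1 (−0.56, adjusted p = 0.0514) or D2 Sus input 1 (−0.50, adjusted p = 0.0781).

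In median levels, the D1-IPs held 40.4% of the input level of *Sst*, 24.1% of *Npy*, 62.0% of *Nos1*, 81.4% of *Chodl*, 74.1% of *Pvalb*, 191% of *Pthlh*, 111% of *Th* and 112% of *Calb2*. The D2-IPs held 40.0% of *Sst*, 52.7% of *Npy*, 62.3% of *Nos1*, 57.6% of *Chodl*, 44.0% of *Pvalb*, 12.0% of *Pthlh*, 215% of *Th* and 59.7% of *Calb2*. IPs and inputs did not overlap for *Sst*, *Npy* and *Nos1* in the D1 line, where 48.3% of genes did not, and for *Sst*, *Nos1*, *Pthlh* and *Th* in the D2 line, where 44.3% did not. On the TMM scale, *Sst* and *Nos1* kept a like share of their input level in both lines. The difference between the lines was tested as an interaction, which 7.59% of genes passed. For *Sst* it was −0.01 (95% CI −0.28 to 0.25), for *Nos1* 0.02 (−0.17 to 0.20) and for *Chodl* 0.22 (−0.52 to 0.96). The other 5 genes passed: *Pthlh* (3.41, adjusted p = 6.40e-12), *Calb2* (1.08, adjusted p = 0.0159) and *Pvalb* (0.79, adjusted p = 0.00698) toward the D1 line, and *Npy* (−1.12, adjusted p = 6.14e-06) and *Th* (−0.83, adjusted p = 0.000253) toward the D2 line. The *Calb2* difference was 0.88 (adjusted p = 0.0510) without D2 Sus input 1.

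**Figure D2:**
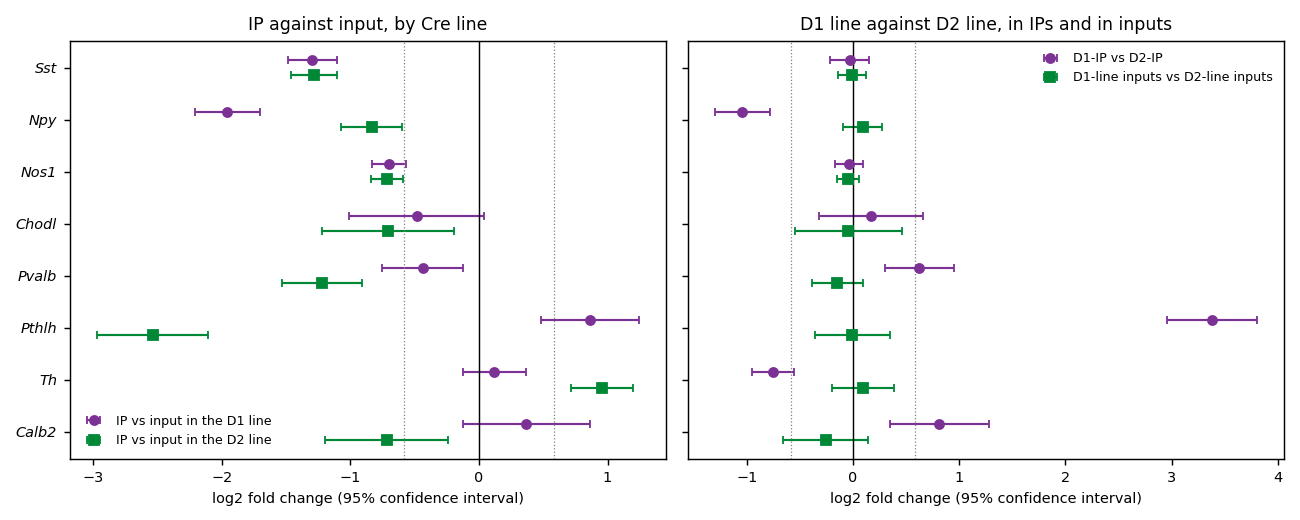
Log2 fold changes with 95% confidence intervals from edgeR, of IP over input in each line (left) and of the D1 line over the D2 line in IPs and in inputs (right), with dotted lines at a fold of 1.5. *Pthlh* was at 0.86 against input in the D1 line and −2.54 in the D2 line, *Th* at 0.12 and 0.95, and the input comparison of the lines lay near 0 for every gene.

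The size of an IP to input change depends on the scale. IPs of both lines were poor in glial mRNAs, with median log2 fold changes of −3.03 in the D1 line and −3.49 in the D2 line for astrocyte markers, −3.19 and −3.36 for oligodendrocyte markers and −4.65 and −4.32 for microglial markers. MSN markers were at 0.89 and 1.28, pan-GABAergic genes at 0.58 and 0.78, the 8 interneuron markers at −0.46 and −0.78, and all genes at −0.04 and −0.08. When libraries were rescaled to pan-GABAergic genes, the median of all genes moved by −0.484 in the D1 line and −0.754 in the D2 line, and by −0.840 and −0.457 when rescaled to pan-neuronal genes. On these scales the D1-line *Pthlh* change was 0.38 (adjusted p = 0.0680) and 0.02 (adjusted p = 0.917), the D2-line *Th* change was 0.21 (adjusted p = 0.0725) and 0.50 (under the fold threshold), and *Th* and *Calb2* in the D1 line turned negative under the pan-neuronal scale (*Th* −0.73, *Calb2* −0.47). *Pvalb* in the D1 line was then lower than in input (−0.93 and −1.28), as was *Chodl* (−0.97 and −1.32). Of the differences between the lines, those of *Pvalb* (0.41, adjusted p = 0.0864) and *Calb2* (0.71, adjusted p = 0.0540) did not pass under the pan-neuronal scale, and that of *Th* (−0.58) was under the fold threshold under the pan-GABAergic scale. The pan-neuronal list itself differed between the lines, since *Stmn2* (1.18) and *Elavl4* (0.76) were higher in D1-IPs than in D2-IPs. The median line difference of all genes moved by −0.382 under the pan-neuronal scale and by 0.271 under the pan-GABAergic scale.

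Other genes of the same interneuron classes gave a partly different picture from *Sst*, *Npy* and *Nos1*. Of 6 transcription factors and other genes of the somatostatin lineage, 3 were higher in D1-IPs than in D2-IPs and 0 were lower, with a list median of 0.60 against −0.02 for all genes. Among them were *Sox6* (0.74) and *Satb1* (0.69), transcription factors of interneurons born in the medial ganglionic eminence. Against input, all 6 were lower in D2-IPs (*Sox6* −2.23), and 1 was lower in D1-IPs (*Sox6* −1.45). Their summed level was 89.9 to 123 CPM in D1-IPs, 58.8 to 95.9 in D2-IPs and 125 to 191 in inputs.

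Of 6 further genes of parvalbumin and fast-spiking cells, 3 were higher in D1-IPs than in D2-IPs and 0 were lower (median 0.51). They were *Cox6a2*, a subunit of cytochrome c oxidase (2.61), *Crhbp*, which binds corticotropin-releasing hormone (0.72), and *Kcnc2*, a potassium channel of fast firing (0.62). In D2-IPs 4 of the 6 were lower than in inputs (*Cox6a2* −3.07, with 2 to 20 counts in a D2-IP), and in D1-IPs 1 was higher (*Syt2*, a synaptic calcium sensor, 0.72). Of 9 genes listed for other interneurons, 4 were higher in D1-IPs (*Cck* 2.05, *Vip* 1.84, *Nr2f2* 1.25, *Htr3a* 1.18) and 1 was lower (*Ndnf*, a secreted factor, −2.92). *Slc17a7*, a marker of cortical excitatory neurons, was at 2.23 in the same comparison, and the part of cortical cells in the values of this list was not tested. *Ndnf* was higher in D2-IPs than in inputs (1.68), and *Vip*, a peptide transmitter, was lower (−3.84, with 4 to 24 counts in a D2-IP). *Prox1* (−2.87), *Htr3a* (−1.70), *Cck* (−1.25) and *Nr2f2* (−1.23) were also lower in D2-IPs than in inputs. In D1-IPs *Prox1* (−2.29) and *Vip* (−1.70) were lower than in inputs as well, and *Cck* was higher (1.13). There *Htr3a* (−0.56), *Nr2f2* (0.17) and *Ndnf* (−0.31) did not pass. *Lamp5*, of the same list, was higher in IPs than in inputs of both lines (1.13 in the D1 line, 1.22 in the D2 line). Between D1-line and D2-line inputs *Ndnf* was at −0.92 (edgeR, adjusted p = 0.777).

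Markers of other neurons moved with the line as well, and their part in the values of the 8 genes was not tested. All 5 cortical excitatory markers were higher in D1-IPs (median 2.15, *Emx1* 2.32, *Slc17a7* 2.23). Their summed level was 382 to 1353 CPM in D1-IPs, 21.3 to 293 in D2-IPs, 213 to 1068 in D1-line inputs and 71.0 to 971 in D2-line inputs, and none was at 0. *Slc17a7*, the vesicular glutamate transporter of cortical cells, had a median of 615 CPM in D1-IPs and 157 in D2-IPs. Of 8 cholinergic markers, 5 were lower and 1 was higher in D1-IPs (median −2.52, *Slc18a3* −3.88), with a summed level of 38.8 to 75.3 CPM in D1-IPs and 97.2 to 192 in D2-IPs. *Chat*, the enzyme that makes acetylcholine, had a median of 1.98 CPM in D1-IPs, 22.6 in D2-IPs and 15.7 in inputs. *Isl1* ran the other way, with medians of 24.5 CPM in D1-IPs, 9.33 in D2-IPs and 15.6 in inputs. It is part of the cholinergic sum here and below.

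For *Th*, markers of midbrain dopamine neurons were set beside it, since their axons reach the NAc. The defining transcription factors *Foxa1* and *Foxa2* were at 0 in all libraries, *En1* had at most 1 count in an IP and *Pitx3* at most 2. The cell bodies of these neurons lie in the midbrain, outside the NAc, so these low counts do not bear on RNA in their axons. *Slc6a3*, the dopamine transporter, was higher in D1-IPs (median 0.535 CPM) than in D2-IPs (0.355), with 3 to 24 counts per IP (log2 fold change 0.66, adjusted p = 0.0283). Of 5 dopamine markers tested, 3 were higher and 1 was lower in D1-IPs (*Aldh1a1* 2.05, *Nr4a2* 1.95, *Slc18a2* −0.94). *Slc18a2*, the vesicular monoamine transporter, had medians of 0.766 CPM in D1-IPs and 1.32 in D2-IPs. *Ddc*, which makes dopamine from the product of tyrosine hydroxylase, had medians of 13.2 CPM in D1-IPs and 19.0 in D2-IPs (−0.52, adjusted p = 9.20e-06, under the fold threshold) and was higher in D2-IPs than in inputs (0.93, adjusted p = 2.91e-09). The part of dopamine axons in the *Th* values was not tested. None of 8 pan-GABAergic genes passed between the lines (median −0.15), nor did any astrocyte or oligodendrocyte marker.

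After social defeat, 0 of the 8 genes had an adjusted p under 0.05 in any contrast of Con, Res and Sus in edgeR. This held for nearly all genes and is not particular to the interneuron markers. Of 14224 genes, 1 passed in Res against Con of the D1-IPs, and 0 passed in every other contrast of IPs or of inputs. At an unadjusted p under 0.05, 1 of the 8 passed in 1 contrast, *Pvalb* in Sus against Con of the D2-IPs, where 3.68% of genes did, and DESeq2 called the same number there and 0 in the other contrasts. *Pvalb* was at 6.49, 3.65, 2.20, 4.82 and 3.48 CPM in D2 Con, at 3.43, 2.58, 3.35, 1.80 and 2.49 in D2 Sus, and at 3.20, 2.32, 4.30, 2.40 and 5.56 in D2 Res. D2 Sus 4 (1.80) lay below every D2 Con library, the other D2 Sus values lay in the lower part of the D2 Con range, and the groups overlapped. The log2 fold change was −0.59 (SE 0.27, unadjusted p = 0.0377, adjusted p = 0.999), and it lost its call without D2 Con 1 (−0.37, unadjusted p = 0.191), D2 Con 4 (−0.53, unadjusted p = 0.0815), D2 Sus 2 (−0.57, unadjusted p = 0.0614), D2 Sus 4 (−0.47, unadjusted p = 0.105) or D2 Sus 5 (−0.56, unadjusted p = 0.0651). The same contrast did not differ detectably between the lines (interaction 0.52, unadjusted p = 0.182).

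The nearest to a call in D1-IPs was *Nos1* in Res against Con (0.24, unadjusted p = 0.0559), which passed without D1 Con 3 (0.28, unadjusted p = 0.0410), D1 Res 3 (0.32, unadjusted p = 0.0131) or D1 Res 4 (0.27, unadjusted p = 0.0427). In Sus against Con *Nos1* was at 0.19 (unadjusted p = 0.0971). *Pthlh* in D2-IPs was at 0.69 in Sus against Con (unadjusted p = 0.136) and 0.70 in Res against Con (unadjusted p = 0.135, or 0.96 with unadjusted p = 0.0281 without D2 Res 3), with 0.248, 0.152, 0.275, 0.402 and 0.241 CPM in D2 Con and 0.641, 0.249, 0.0782, 0.617 and 0.594 in D2 Res. At these levels a few reads per library set the values. In inputs, the closest was *Sst* in Sus against Res (−0.14, unadjusted p = 0.0637), which passed with −0.16 to −0.19 without D1 Res input 2, D2 Res input 3, D2 Sus input 2 or D2 Sus input 3. None of the 8 passed an unadjusted p of 0.05 in the other contrasts in edgeR. The shares of all genes that did were 5.34% in Sus against Con, 2.11% in Res against Con and 4.23% in Sus against Res of the D1-IPs. They were 3.02% in Res against Con and 1.66% in Sus against Res of the D2-IPs, and 4.47%, 3.23% and 5.54% in the same order of contrasts in inputs. Of the tests of whether a contrast differed between the lines, 1.82%, 2.36% and 2.03% of genes passed, and 0 of the 8 did.

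**Figure D3:**
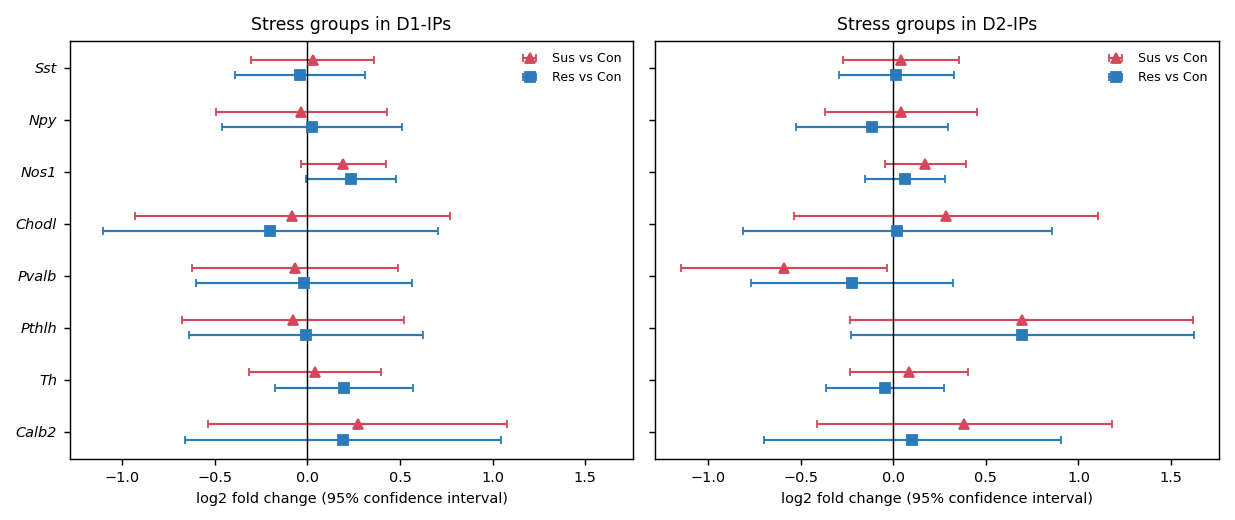
Log2 fold changes with 95% confidence intervals (edgeR) of Sus and Res over Con for the 8 genes in D1-IPs (4 Con, 4 Res, 5 Sus) and D2-IPs (5 per group). Every interval crosses 0 except that of *Pvalb* in Sus against Con of the D2-IPs (−0.59), and the widest are those of the low genes *Pthlh* and *Chodl*.

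The 4 D1-IPs labelled Sirt1-KO were compared with the 4 D1 Con libraries. *Sirt1*, the deacetylase gene targeted by the label, was at 13.1, 16.6, 14.8 and 14.4 CPM in D1 Con and at 15.2, 16.2, 13.2 and 10.2 in the libraries labelled Sirt1-KO (log2 fold change −0.10, adjusted p = 0.768). The mRNA level therefore does not separate these groups, and counts over the whole gene do not show whether a floxed exon was lost. Sequencing batches were not named per library, so the groups could not be compared within a batch.

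Of the 8 genes, 1 passed both thresholds, where 0.749% of 13626 genes did (38 higher and 64 lower). *Chodl* was at 1.82, 1.57, 1.74 and 2.32 CPM in D1 Con (43 to 62 counts) and at 1.02, 0.679, 0.730 and 0.930 in Sirt1-KO (20 to 29 counts), without overlap (log2 fold change −1.16, SE 0.24, adjusted p = 0.0367). The call was lost when any of 6 libraries was left out: D1 Con 1 (adjusted p = 0.0741), D1 Con 3 (0.0908), D1 Con 4 (0.103), Sirt1-KO 1 (0.0569), Sirt1-KO 3 (0.115) or Sirt1-KO 4 (0.130).

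*Nos1* and *Npy*, of the same class, had higher values in Sirt1-KO, at an adjusted p under 0.05 but a fold under 1.5, and with *Chodl* included, 3 of the 8 had such an adjusted p, where 1.66% of genes did. *Nos1* was at 44.5, 55.9, 58.2 and 56.5 CPM in D1 Con and at 71.0, 82.3, 83.8 and 79.9 in Sirt1-KO. Every Sirt1-KO library lay above every D1 Con library (0.56, SE 0.09, adjusted p = 0.0139), a change just under the fold threshold that exceeded it without D1 Con 3 (0.60) or Sirt1-KO 1 (0.61). *Npy* was at 9.01, 11.4, 8.62 and 9.67 CPM in D1 Con and at 12.9, 12.5, 14.1 and 13.6 in Sirt1-KO, again without overlap (0.46, SE 0.10, adjusted p = 0.0491, under the fold threshold). *Sst* was at 43.7, 59.8, 48.3 and 38.9 CPM in D1 Con and at 51.3, 68.5, 61.7 and 68.9 in Sirt1-KO, which overlapped (0.39, adjusted p = 0.143).

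Of the fast-spiking markers, *Pvalb* was at 4.25, 5.60, 4.78 and 6.04 CPM in D1 Con and at 3.37, 2.78, 2.00 and 3.58 in Sirt1-KO. The groups did not overlap, and the change of −0.82 missed the threshold (SE 0.19, adjusted p = 0.0578), which it passed without Sirt1-KO 5 (−0.93, adjusted p = 0.0191). *Pthlh* was at 4.32, 3.22, 3.78 and 4.12 CPM in D1 Con and at 2.84, 2.26, 2.64 and 3.26 in Sirt1-KO (−0.50, adjusted p = 0.146). *Th* (0.29, adjusted p = 0.276) and *Calb2* (−0.19, adjusted p = 0.689) overlapped between the groups. In all, 4 of the 8 genes did not overlap, against 9.55% of the genes tested. Cortical markers summed to 361 to 995 CPM in D1 Con and 814 to 1519 in Sirt1-KO (0 of 5 passed, median 0.81), and cholinergic markers to 42.5 to 47.6 and 27.8 to 36.6 (1 of 7 tested was lower). Their part in these values was not tested.

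**Figure D4:**
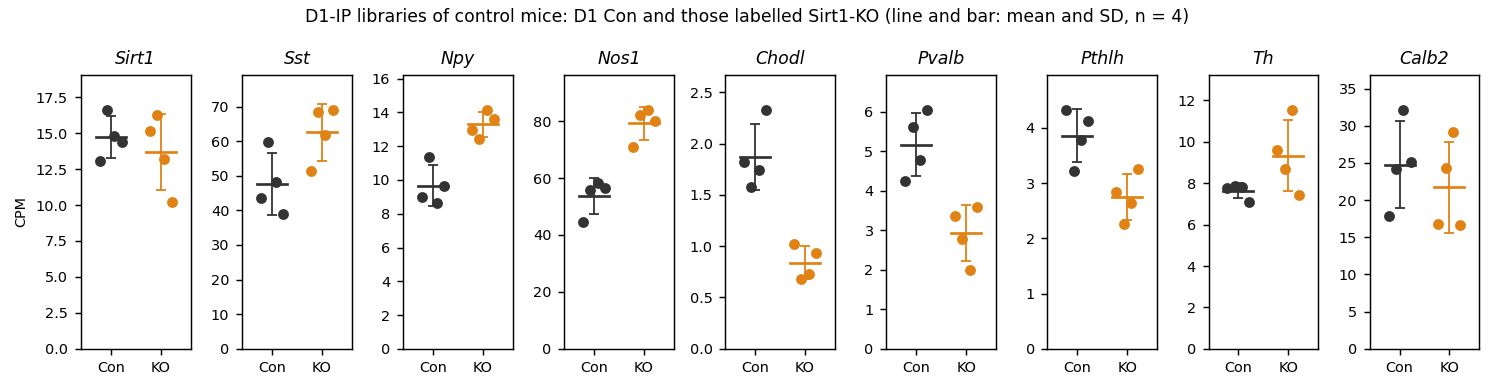
CPM of *Sirt1* and the 8 genes in each D1 Con library and each D1-IP labelled Sirt1-KO (points), with the mean and SD of 4 libraries as line and bar and a separate linear axis from 0 for each gene. *Sirt1* overlapped between the groups, *Nos1* and *Npy* were higher and *Chodl* and *Pvalb* lower in Sirt1-KO without overlap.

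Within groups, *Th* and *Calb2* varied together, as did *Sst* and *Npy* in inputs. Deviations from the group mean (log2 CPM) were correlated over libraries, which share their depth, scaling and line, and the values are descriptions. For *Th* and *Calb2* the correlation was high in the 28 IPs (r = 0.81, or 0.73 over 26 without D2 Sus 1 and D2 Sus 5) and in the 18 inputs (0.83, or 0.74 without D2 Sus 1). For *Sst* and *Npy* it was high in inputs (0.90, or 0.77 without D2 Sus 1) but less in IPs (0.19, or 0.55 over 26). *Chodl* went with *Calb2* in IPs (0.76, or 0.62) and not in inputs (0.02, or −0.36 without D2 Sus 1), and with *Npy* it was at −0.72 in IPs (−0.48 over 26) and −0.55 in inputs (−0.34 without D2 Sus 1). *Pvalb* and *Pthlh* were at 0.10 in IPs and at −0.74 in inputs (−0.62 without D2 Sus 1).

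**Figure D5:**
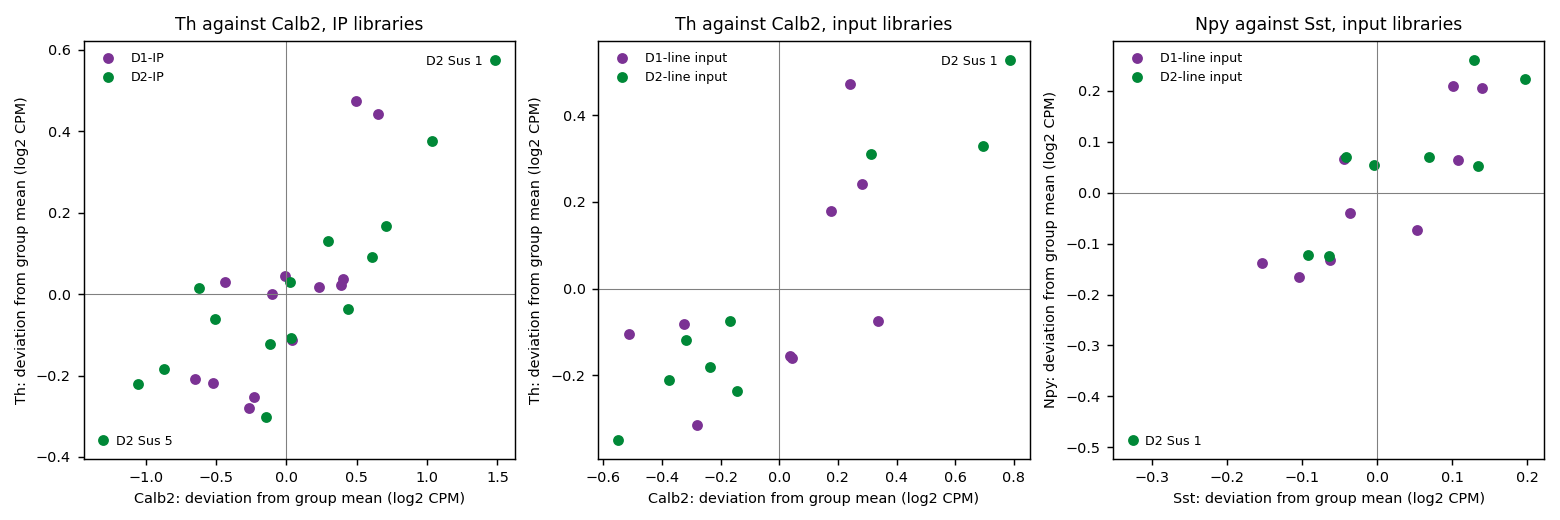
Deviation of each library from its group mean in log2 CPM, for *Th* against *Calb2* in 28 IPs (left) and 18 inputs (middle) and for *Npy* against *Sst* in the inputs (right), colored by line. *Th* and *Calb2* rise together in both kinds of library (r = 0.81 and 0.83), and D2 Sus 1 and D2 Sus 5 lie at the ends.

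The summed markers of other neurons moved with the same deviations in the 28 IPs. With the cortical sum, r was 0.80 for *Npy* (0.71 over 26 libraries), −0.71 for *Th* (−0.55), −0.69 for *Calb2* (−0.54), −0.68 for *Pthlh* (−0.47), −0.63 for *Chodl* (−0.50) and 0.29 for *Sst* (0.54). With the cholinergic sum it was 0.83 for *Th* (0.77), 0.68 for *Calb2* (0.49), 0.67 for *Chodl* (0.44) and −0.71 for *Npy* (−0.51). The part of the cortical and cholinergic cells in the values of the 8 genes was not tested. Between the IP and the input that carry the same group and number, of which there were 18, r of the deviations was 0.79 for *Npy* (0.59 without D2 Sus 1), 0.55 for *Chodl* (0.42), 0.36 for *Sst* (0.49), 0.34 for *Pvalb* (0.35) and −0.40 for *Pthlh* (−0.10). It was 0.36 for *Calb2* (−0.02 without D2 Sus 1), 0.28 for *Th* (−0.04) and 0.06 for *Nos1* (−0.31), so that these 3 did not stay positive without that pool.

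Over the 28 IPs, the 2 genes whose deviations were most like those of each marker were *Sh3gl2* (r = 0.82) and *Rab3a* (0.81) for *Sst*, *Id2* (0.89) and *Tmem40* (0.87) for *Npy*, *Atp1b2* (0.81) and *Mast4* (0.78) for *Nos1*, *AW551984* (0.93) and *Baiap3* (0.91) for *Chodl*, *Cxcl14* (0.80) and *Nefm* (0.76) for *Pvalb*, *Nlrc3* and *Gpc3* (0.76 each) for *Pthlh*, *Ache* and *Pygb* (0.86 each) for *Th*, and *Cd83* (0.95) and *Psd2* (0.93) for *Calb2*.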

How the data were processed

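RNA was sequenced from 50 libraries of NAc tissue. The deposited values are raw counts, a whole number of reads per gene symbol and library, and the authors did not normalize them. Per the labels and the paper's methods, poly-A RNA was sequenced from stranded libraries on an Illumina instrument, after samples of low RNA integrity were left out. The submitters' processing notes name cutadapt, FastQC, STAR, HTSeq, DESeq2, HOMER and mm10. Their versions, the gene annotation and the strand setting of the counting are not given in the sources used here, so reads of overlapping genes may be shared. Of the columns, 2 (D1 Con 5 and D1 Res 5) had no matching sample label and were not used. The table with Sirt1-KO repeats the 4 D1 Con columns with identical counts and was normalized separately over 8 libraries. The 5 entries that name no gene held 18.0% to 28.3% of reads in IPs and 35.9% to 40.0% in inputs and were left out.

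Groups were taken from the labels. Counts were TMM-normalized, genes were kept by filterByExpr (minimum count 10, minimum total 15), and contrasts were fitted with edgeR 4.0.16 (quasi-likelihood tests) in R 4.3.3. The IP model had 1 mean for each of 6 groups (14224 genes tested), the IP and input model 1 mean for each of 12 groups (15404 genes), the model of inputs by line 15063 genes, that of inputs by stress group, with a term for line, 14820 genes, and the Sirt1-KO model 13626 genes. Adjusted p is that of Benjamini and Hochberg over all genes of a model. Comparisons of lines, of IPs with inputs and of Sirt1-KO were called at a fold over 1.5 and an adjusted p under 0.05, and stress contrasts and their interactions at an unadjusted p below 0.05, the study's own rule for them. Log2 CPM used a prior count of 2. Figures were drawn with Python 3.11.15, pandas 2.3.3, numpy 2.4.6 and matplotlib 3.10.9. The fits were tested on simulated counts with known changes.

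Gene positions and exon lengths came from the GENCODE vM21 annotation of GRCm38 (mm10). The replicates are pools of 2 mice, and where the labels do not say that pools are separate cohorts the p-values cover the spread between these libraries.

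The 8 genes and the marker lists were chosen with earlier results of these data known. Named were the 8 genes in every comparison, the 2 genes most like each over the IPs, the 2 with the largest change among those called in each marker list, and *Sirt1*. Some genes that this rule names are not reported here. Other genes of the lists (*Satb1*, *Kcnc2*, *Nr2f2*, *Htr3a*, *Lamp5*, *Prox1*, *Slc18a2*, *Ddc*, *Chat*, *Isl1*, *Penk*, *Gpr6*, *Tac1*, *Chrm4*, *Foxa1*, *Foxa2*, *En1*, *Pitx3*, *Slc6a3*) were named after their values were seen. Alternatives were DESeq2 1.42.0, RLE factors, a filter that kept every gene with 1 count or more, a stricter filter at a mean count of 50, scaling to pan-GABAergic or pan-neuronal genes, only the libraries compared, control libraries only, the replicate number as a block, and each of 50 libraries left out in turn.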

Additional observations from a re-analysis of the deposited data

Results flagged for a closer look

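A library far from the rest of its group was found in 6 of the 56 sets of 4 or 5 IP libraries examined (Dixon's test at 95%), where chance gives about 1 in 20. *Nos1* was at 47.0 CPM in D1 Con 1 and at 59.0 to 61.4 in the other D1 Con libraries. *Chodl* was at 2.99 CPM in D2 Con 3 and at 0.869 to 1.45 in the rest. *Pvalb* was at 3.15 CPM in D1 Sus 3 and at 5.37 to 6.21 in the rest. *Th* was at 7.45 CPM in D1 Con 4 and at 8.21 to 8.31 in the rest, a narrow gap in absolute terms. D2 Sus 1 stood out in 2 genes, *Pthlh* (1.07 CPM against 0.172 to 0.409) and *Th* (21.7 CPM against 11.4 to 14.1). The same pool also held the highest *Calb2* of the D2-IPs (42.9 CPM) and the lowest *Npy* (11.3 CPM).

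The change of IP over input differed between the lines, by an interaction test in edgeR, for 5 of the 8 genes. The log2 differences (D1 line minus D2 line) were 3.41 for *Pthlh*, 1.08 for *Calb2*, 0.79 for *Pvalb*, −1.12 for *Npy* and −0.83 for *Th*.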

How the results depend on the processing

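Over 62 settings, values of single genes kept their direction and side of the threshold in 3782 cases, gained a call in 34, lost it in 31 and turned in 1, *Th* in IP against input of the D1 line, at −0.73 on the pan-neuronal scale in place of 0.12. The cause was not tested. Counts of genes or members called stayed within 1.5 times in 894 cases and moved further in 72. With genes of a mean of at least 50 counts, fewer genes were tested and the calls were 622 for D1-IP against D2-IP (1089 otherwise), 4164 and 4209 for IP against input in the D1 and D2 lines (6632 and 6717), and 172 for the interaction of line with Sus against Con (259), and 0 of the 8 genes were called in Sirt1-KO (1 otherwise). With all genes of at least 1 count, Res against Con in D1-IPs gave 478 genes (300) and 1 of the 8 (0), Sus against Res in D2-IPs gave 447 (236), the interactions of line with Sus against Con, Res against Con and Sus against Res gave 453, 520 and 513 (259, 335 and 289), and Sirt1-KO gave 170 (102) and 2 of the 8. DESeq2 called 10 genes between the lines' inputs (4) and, in Sirt1-KO, 223 genes and 2 of the 8. With only the libraries compared, 1 of the 8 was called in Sus against Con of D1-IPs (0). Without D2 Sus 1 and D2 Sus 5, a setting chosen after the data were seen, Res against Con in D1-IPs gave 1 of the 8 and Sus against Con in D2-IPs 340 genes (523). The IP to input change in the D1 line gave 10303 genes on the pan-neuronal scale, and its difference between the lines gave 1849 genes on the pan-GABAergic scale, 3129 on the pan-neuronal scale and 507 with control libraries only (1169), with 3 of the 8 on the pan-neuronal scale and 3 with control libraries (5 otherwise). With control libraries only, *Calb2* (1.10, adjusted p = 0.0974) and *Pvalb* (0.67, adjusted p = 0.296) were the ones lost.

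The labels do not say that a shared number marks a shared pool. With the replicate number as a block, Res against Con in D2-IPs gave 696 genes (430), Sus against Res in D2-IPs 366 (236), the interaction of line with Res against Con 573 (335), the inputs of the lines 7 (4), and Sirt1-KO 630 (102) with 3 of the 8, *Pvalb* (−0.89, adjusted p = 0.0186) and *Pthlh* (−0.66, adjusted p = 0.0438) beside *Chodl*. *Th* passed between lines in Res (−0.62). The deviations of IP and input of the same number correlated at −0.106 to 0.431 (median 0.0148, 18 pairs), and 7 of 18 inputs correlated best with their own number.

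With each library left out in turn, the calls ran from 1 to 6 genes between the lines' inputs, 203 to 488 for Res against Con and 482 to 921 for Sus against Con in D1-IPs, 210 to 535 for Sus against Res in D2-IPs, 528 to 1263 for Sus against Con and 631 to 1544 for Sus against Res in inputs, 218 to 427 and 274 to 514 for the interactions of line with Sus against Con and with Res against Con, and 29 to 386 in Sirt1-KO. Of the 8 genes, 2 to 4 were called between lines in Res, 0 to 1 in Res against Con of D1-IPs and of D2-IPs and in Sus against Con of D2-IPs and of inputs, and 0 to 2 in Sus against Res of inputs and in Sirt1-KO.

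Depth limits *Pthlh* in D2-IPs (2 to 32 counts) and *Chodl* (8 to 115 counts), and of the list genes *Cox6a2* (2 to 20 counts) and *Vip* (4 to 24 counts) in D2-IPs. Libraries pool 2 mice, sequencing sets are not named per library, and poly-A counts of whole tissue punches do not locate an mRNA in a cell.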
